A study of Solanum lycopersicum with 36 samples.

Results

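The comparison described here set mRNA from tomato leaves at Dark 0h against mRNA at Light 0h, which are 6 of the 36 libraries of the series, chosen by their labels alone. All plants were Solanum lycopersicum of the cultivar labelled HeinZ 1706 (a processing tomato), kept at 25 °C under 12 h of light and 12 h of dark, and leaves were taken at 4 weeks of age. Each group had 3 libraries of polyadenylated RNA. The label's hour is read here as time since the start of the dark or light phase, so that Dark 0h is dusk and Light 0h is dawn, 12 h apart. The labels do not say on which side of the switch of the lamps a leaf was cut, nor whether each replicate is a plant of its own, so the spread behind the p-values may be technical.

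Plants keep time with a circadian clock, a network of transcription factors that repress each other in turn, some made around dawn and some around dusk. Light acts on the same genes through photoreceptors, and sugars and starch, which build up in the light and are used in the dark, act on many more. Dawn and dusk are therefore the times at which a leaf of a light and dark regime goes from one metabolic state to the other. A single day in such a regime does not separate what the clock does from what light does.

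The files give genes as identifiers of the form Solyc, chromosome number, g and a running number. The reference table at hand lists 41476 genes and matched 0 of the 34075 identifiers. Names, functions and sequences are therefore not given, gene lists by function and the markers of leaf cell types could not be applied, and few identifiers are printed. The groups of genes below are defined by when their mRNA was high. In whole leaves, fewer cells of a type and less RNA per cell cannot be told apart.

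Gene counts in the 6 libraries ran from 14867053 to 27126312, and 88 to 90.2% of the reads counted lay in genes. Replicates correlated (r of log2 CPM over 19711 genes) at 0.961 to 0.971 within Dark 0h and at 0.973 to 0.979 within Light 0h, against 0.894 to 0.925 between the groups. CPM is the read count scaled to library size. The median SD of a gene between replicates was 0.3 (log2 CPM) at Dark 0h and 0.275 at Light 0h. The groups differed in how they matched GMUCT, the libraries of uncapped and cleaved RNA labelled with the same 6 times. Over 9880 genes with 10 CPM or more in mRNA and in GMUCT, each library was described by its deviation from the day's mean. The 3 mRNA libraries of Light 0h then correlated best with GMUCT of Light 0h, at r = 0.74, 0.68 and 0.73. Those of Dark 0h had r = -0.04, 0.06 and -0.13 with GMUCT of Dark 0h. They correlated best with GMUCT of Dark 4h (replicates 1 and 2, r = 0.25 and 0.32) or Dark 8h (replicate 3, r = 0.31). All results below rest on these 3 libraries together, and none can be given without them. Values without each in turn are in the closing section.

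Dusk and dawn differed in a large share of the leaf's genes. Of 19711 genes, 3317 were higher at Dark 0h and 3948 were lower (edgeR quasi-likelihood test, adjusted p under 0.05), which are 16.8% and 20% of the genes tested and 36.9% together. The first are called dusk-high and the second dawn-high. Which list was longer depended on the fit. One of only these 6 libraries, over 18561 genes, called 3020 higher and 2901 lower, and one of all 18 libraries with a filter of 5 CPM in 3 libraries called 3335 and 3290. Of the genes past the threshold, 94% of the dusk-high and 93.3% of the dawn-high had 3 values on one side of all 3 values of the other group. The call and this gap rest on the same 6 libraries, so a high share among called genes is largely built in. Over all genes tested, such a gap was seen in 21.5% with Dark 0h above and in 24.2% with Dark 0h below. Among genes not past the threshold it was seen in 17.8%, in either direction. At the threshold, genes with log2 changes of 0.51 and -0.81 lay just inside and just outside it, and 996 genes with a fitted change of at least 2-fold were not called.

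The dusk-high genes changed by more than the dawn-high genes, as a description of lists made by this contrast. The median log2 change was 1.09 (quartiles 0.74 and 1.72) for the dusk-high genes and -0.96 (-1.45 and -0.7) for the dawn-high, against -0.03 for all genes tested. Among the dusk-high genes 1855 (9.41% of those tested) differed at least 2-fold, 647 at least 4-fold, 252 at least 8-fold and 104 at least 16-fold. Among the dawn-high genes these numbers were 1842 (9.35%), 512, 181 and 75. In this fit the 2 lists were thus alike in number at 2-fold, and the largest changes were more often toward dusk. The likeness at 2-fold depended on the fit. With only the 6 libraries 1936 genes were higher and 1575 lower at 2-fold, and without replicate 2 of Dark 0h 1862 and 2044. The larger classes were counted in the main fit alone. Hardly any mRNA was found at 1 of the 2 times alone. Counts in all 6 libraries were seen for 19543 identifiers, while 58 had counts in every library of Dark 0h and none at Light 0h, and 98 the reverse. Only 6 and 2 of these had at least 10 counts in each library of the time at which they were seen.

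**Figure D1:**
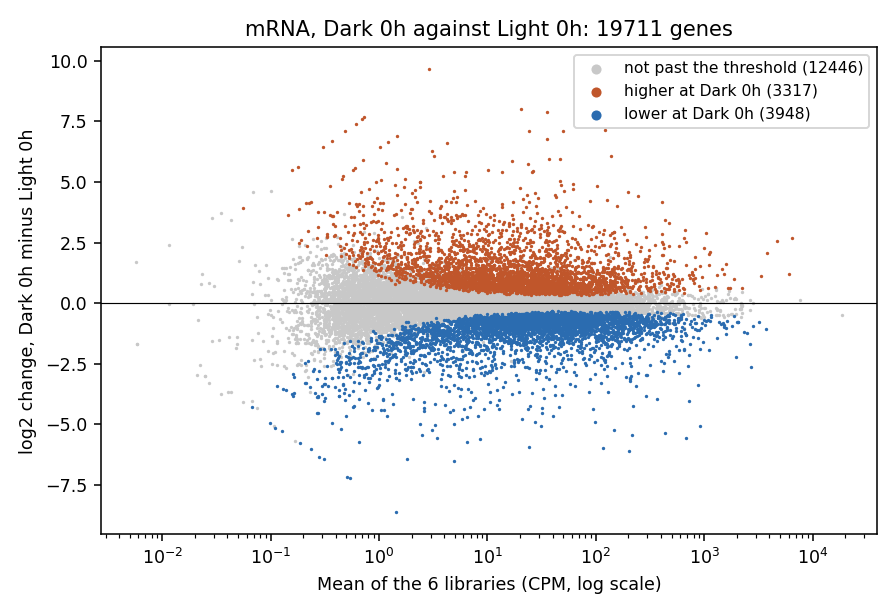
Each point is a gene, with its mean over the 6 libraries (CPM, log scale) on the horizontal axis and its log2 change, Dark 0h minus Light 0h, on the vertical axis. The 3317 higher genes are orange, the 3948 lower genes blue and the rest grey; among strongly counted genes the blue points outnumber the orange.

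The lists differed in how strongly their genes were counted. These levels are reads per gene, not corrected for the length of a transcript, so they compare the lists and not single genes. Under 1 CPM, 146 of 2353 genes were dusk-high and 172 dawn-high. From 1 to 10 CPM, 15.2% of 6854 genes were dusk-high and 13.2% dawn-high. From 10 to 100 CPM the shares were 20.7% and 25.6% of 8363 genes, and from 100 to 1000 CPM 18.5% and 34.5% of 2036. Above 1000 CPM 20 of 105 genes were dusk-high and 29 dawn-high. These shares hold for the fit of 19711 genes and its scaling, and the stricter filter named above, which keeps the more strongly counted genes, called about as many genes higher as lower.

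A large part of the leaf's mRNA pool changed hands between the lists. Dusk-high genes held 29.3, 27.2 and 29.2% of the gene counts in the 3 libraries of Dark 0h and 11.7, 10.9 and 11.8% in those of Light 0h. Dawn-high genes held 19.6, 22.1 and 20.2% at Dark 0h and 38.8, 40.1 and 38.4% at Light 0h. The groups did not overlap in either share, which the choice of the lists fixes. Genes not past the threshold held 49 to 51.1% in all 6 libraries. The means were 28.6 ± 1.2% against 11.5 ± 0.49% for dusk-high genes and 20.6 ± 1.3% against 39.1 ± 0.89% for dawn-high genes (SD, n = 3). The counts were spread over many genes. Between 680 and 901 genes were needed to make up 50% of the counts of a library at Light 0h and between 731 and 881 at Dark 0h, and the 20 genes with the most counts held 7.25 to 9.84% of a library. Of those 20 genes, 6 were dusk-high, 7 dawn-high and 7 not past the threshold.

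**Figure D2:**
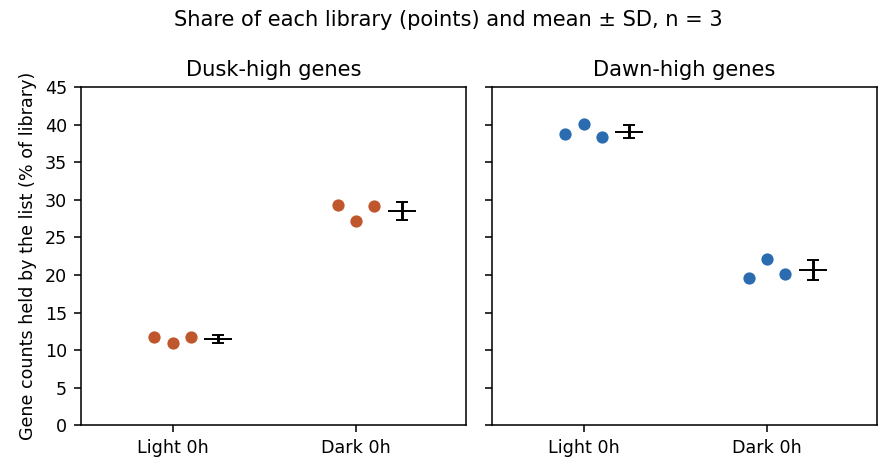
Percent of each library's gene counts held by the dusk-high genes (left) and the dawn-high genes (right); points are single libraries and black bars the mean ± SD of 3. Dusk-high genes hold 27.2 to 29.3% at Dark 0h and 10.9 to 11.8% at Light 0h, and dawn-high genes 38.4 to 40.1% at Light 0h and 19.6 to 22.1% at Dark 0h.

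Single genes show the far end of the lists and not their typical change. Those given here changed most among genes with a mean of at least 10 CPM, at least 3 counts in every library and no overlap between the groups, 2 from each list. Genes outside these limits had larger changes. gene:Solyc08g080670.1 had 64.7, 48.6 and 101 CPM in the libraries of Dark 0h and 0.21, 0.387 and 0.341 CPM in those of Light 0h. Its log2 change was 7.89 ± 0.43 (SE; adjusted p = 5.03e-10, edgeR). It was high at this time and no other, with means between 0.16 and 1.09 CPM at the other 4 times. gene:Solyc09g009420.1 had 304, 234.9 and 191.4 CPM at Dark 0h and 1.85, 1.86 and 1.36 CPM at Light 0h (7.16 ± 0.24, adjusted p = 9.98e-13). This gene was high through the light as well, with 171.7 ± 20.1 CPM (SD, n = 3) at Light 4h and 39.1 ± 6.61 at Light 8h, and low in the night, with 3.34 ± 0.317 at Dark 4h and 1.86 ± 0.369 at Dark 8h. Both were at their highest mean of the day at Dark 0h.

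Among the dawn-high genes, Solyc05g014280 had 338, 499.7 and 362.9 CPM at Light 0h and 6.77, 3.47 and 7.14 CPM at Dark 0h, a log2 change of -6.13 ± 0.35 (SE; adjusted p = 6.28e-10). Its mean was already 214.5 ± 76.9 CPM at Dark 8h (SD, n = 3) and still 199.2 ± 33.9 at Light 4h, and it was 10 ± 2.09 at Light 8h. It was therefore high on both sides of dawn. gene:Solyc05g011890.1 had 297.6, 184.9 and 210.4 CPM at Light 0h and 6.3, 2.36 and 2.22 CPM at Dark 0h (-6.01 ± 0.6, adjusted p = 5.03e-07). It was not at its highest at dawn, with 434.3 ± 40.6 CPM at Light 4h, and it was at 18.2 ± 17.2 CPM at Dark 8h, where replicate 3 had 38 and the other libraries 6.34 and 10.3. In each of the 4 genes the groups of Dark 0h and Light 0h lay far apart, which the choice of the genes fixes.

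**Figure D3:**
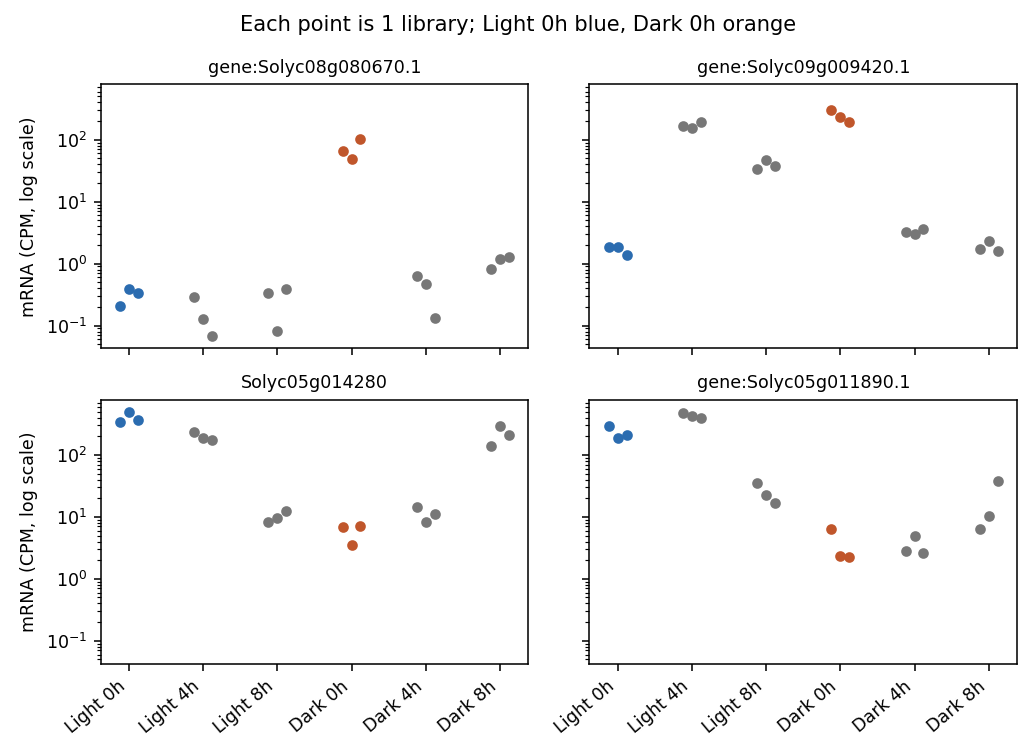
mRNA level (CPM, log scale) of 4 genes, by time, with the largest changes among genes of at least 10 CPM, at least 3 counts in every library and no overlap; each point is 1 library, with Light 0h in blue, Dark 0h in orange and the other times in grey. gene:Solyc08g080670.1 has 48.6 to 101 CPM at Dark 0h and is low at all other times, gene:Solyc09g009420.1 is also high at Light 4h, and the 2 genes in the lower row are high around Light 0h or Light 4h.

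Over the other 4 times, which were not part of the contrast but shared its filter, scaling and estimate of spread, dusk-high genes were highest late in the light and dawn-high genes late in the dark. Relative to each gene's own mean of those 4 times, the median of the dusk-high genes was -0.07 (log2 CPM) at Light 4h, and by Light 8h it was 0.26. In the night it was 0.05 at Dark 4h and -0.17 at Dark 8h. The dawn-high genes had medians of -0.05, -0.24, 0.05 and 0.26 at the same times, and all genes tested between -0.01 and 0.02. Of the dusk-high genes, 39.7% had their highest of the 4 means at Light 8h, against 25.2% of all genes tested. Of the dawn-high genes, 46.9% had it at Dark 8h, against 29.7% of all. Each list was thus already drawn toward its level 4 h before its own time by the assumed hours. No test was made of these differences between lists.

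Within the lists, a peak at dusk alone was more frequent than a peak at dawn alone. The lists were made by the contrast of these 2 times, which favours peaks and troughs at them. Of the dusk-high genes 302 (9.1%) had a mean at Dark 0h at least 2-fold above that of every other time. Of the dawn-high genes 44 (1.11%) stood out in this way at Light 0h. The share of all genes tested that did so was not computed. Over all 6 times, 52.9% of the dusk-high genes were highest at Dark 0h and 26.7% at Light 8h, against 17.9% and 20.9% of all genes tested. Of the dawn-high genes 49.3% peaked at Light 0h, 20.3% peaked at Light 4h and 12.6% at Dark 8h. Over all genes tested these shares were 17.3%, 20% and 12%. The lowest time was Light 0h for 45.2% of the dusk-high and Dark 0h for 47.3% of the dawn-high genes. Of all genes tested, 15.4% were lowest at Light 0h and 18.4% at Dark 0h. A highest or lowest mean was not tested against the next.

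**Figure D4:**
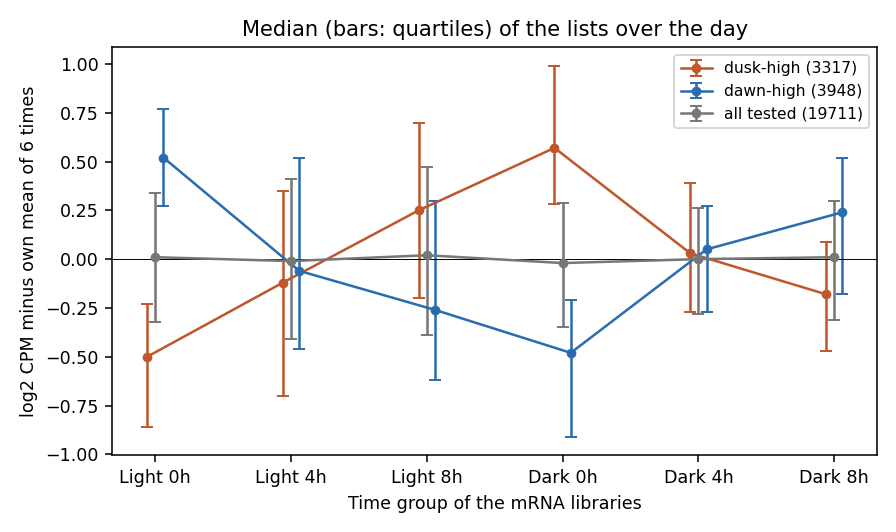
Median of log2 CPM minus each gene's own mean of the 6 times, for dusk-high genes (orange), dawn-high genes (blue) and all genes tested (grey); bars span the quartiles. The dusk-high genes climb from -0.5 at Light 0h to 0.57 at Dark 0h and are at -0.18 by Dark 8h, and the dawn-high genes mirror them; the values at Light 0h and Dark 0h chose the lists.

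The difference between dark and light changed with the hour in a large share of the genes. When the dark group was set against the light group 4 h later (Dark 4h against Light 4h), 34.2% of the dusk-high genes were higher in the dark and 23.4% lower, while over all genes tested 24.1% were higher and 21.6% lower. Of the dawn-high genes, 27% were lower in the dark and 31.7% higher. At hour 8 (Dark 8h against Light 8h) more of the dusk-high genes went the other way than the same way. Of them 42.7% were lower at Dark 8h, 42.6% not past the threshold and 14.7% higher, against 25.5% and 24.5% of all genes tested, and of the dawn-high genes 48.4% were higher and 21.9% lower. The genes lower at Dark 8h than at Light 8h numbered 5030, of which 28.2% were dusk-high, and the genes higher numbered 4837, of which 39.5% were dawn-high. None of these contrasts shares a library with that of dusk and dawn, although all came from a single fit. They use the same libraries as the medians over the other 4 times above. The result at hour 8 is thus not separate from those medians at Light 8h and Dark 8h.

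The median log2 difference, dark minus light, was 0.14 at hour 4 and -0.43 at hour 8 for dusk-high genes, and 0.11 and 0.52 for dawn-high genes. Across the 19711 genes, the change from dawn to dusk correlated with the dark minus light difference at hour 4 with r = 0.23 (Spearman's rho = 0.07) and at hour 8 with r = -0.14 (rho = -0.22). These describe the libraries, genes are not independent replicates, and they carry no p. Tested gene by gene in the fit of 18 libraries, the dark minus light difference at hour 0 was above that at hour 8 in 4938 genes (25.1%) and below it in 5041 (25.6%). Against hour 4 it was above in 3817 genes (19.4%) and below in 4503 (22.8%). This test was added after the data had been seen. Over all genes tested, 13.2% were higher in the dark at both hour 4 and hour 8, and 13.2% were lower at both. Of the dusk-high genes 320 (9.65%) were higher at both, and of the dawn-high genes 634 (16.1%) were lower at both. More of the dawn-high genes, 1076 (27.3%), which are lower at Dark 0h than at Light 0h, were higher in the dark at hours 4 and 8. Of the dusk-high genes 571 (17.2%) were lower in the dark at both later hours.

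**Figure D5:**
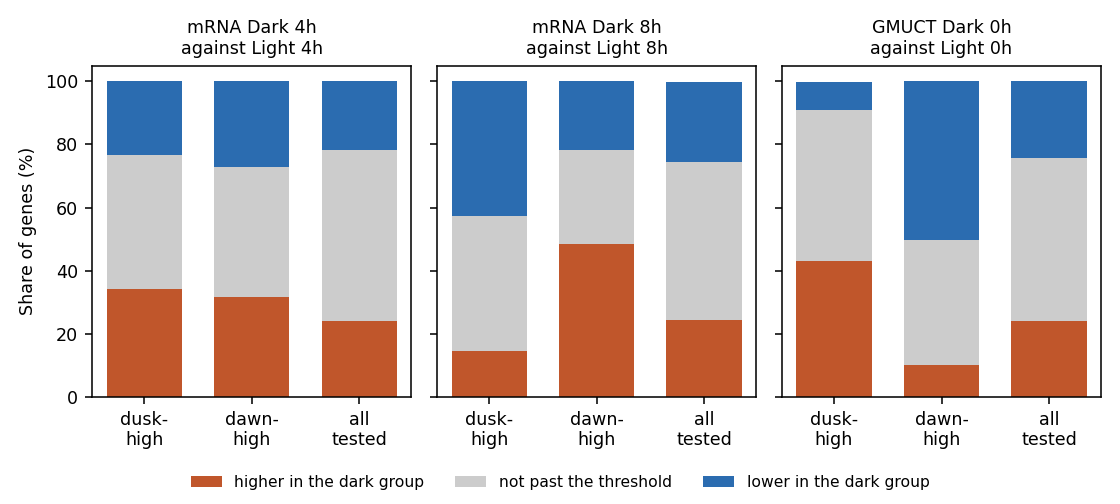
Share (%) of the dusk-high genes, the dawn-high genes and all genes tested that were higher (orange), not past the threshold (grey) or lower (blue) in the dark group of 3 other comparisons. At hour 8, 42.7% of the dusk-high genes are lower and 48.4% of the dawn-high genes higher, while in GMUCT libraries labelled Dark 0h and Light 0h 43.1% and 50.3% go the same way as in mRNA.

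Some genes reversed by a wide margin between hours, and those with the largest reversal within the same limits are given here as a description, since the reversal chose them. gene:Solyc03g005760.1 was dusk-high with 114.4, 181.8 and 61.5 CPM at Dark 0h and 1.89, 3.79 and 6.36 CPM at Light 0h (log2 change 4.92 ± 0.67, SE). It had far more mRNA in the light, with 1545.4 ± 78.8 CPM at Light 4h and 1062.1 ± 68.6 at Light 8h (SD, n = 3), against 4.42 ± 3.23 at Dark 4h and 4.27 ± 3.56 at Dark 8h. Its value at dusk thus lay between its level late in the light and that of the night. gene:Solyc02g070940.1 was alike, with 49.7, 51.3 and 22 CPM at Dark 0h and 2.83, 4.88 and 8.41 CPM at Light 0h (2.95 ± 0.63), and with 1838.1 ± 68.5 CPM at Light 4h against 4.08 ± 2.99 at Dark 4h. Solyc01g079470 had 23, 18.3 and 8.35 CPM at Dark 0h and 3.81, 4.95 and 5.17 CPM at Light 0h (1.85 ± 0.41), with 962.3 ± 256.9 CPM at Light 8h and 2.7 ± 1.86 at Dark 8h. It was at 109.1 ± 27 CPM at Dark 4h, so that its level at Dark 0h was lower than at the times before and after.

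In the opposite direction, 4 genes were lower at dusk than at dawn, with log2 changes of -0.98 to -1.39, and lower still at Light 4h or Light 8h. Solyc05g009310 had 1548.4, 2516 and 1991.7 CPM at Light 0h and 898.2, 1073.6 and 1094.3 CPM at Dark 0h (log2 change -0.98 ± 0.29, SE). At Light 4h it had 48.7 ± 7.51 CPM and at Dark 4h 1993.4 ± 717.7 (SD, n = 3). Without replicate 1 of Dark 0h or replicate 2 of Light 0h the difference between dusk and dawn was not past the threshold (adjusted p = 0.0649 and 0.0566, edgeR). Solyc09g075840 had 32.2, 79.3 and 49.2 CPM at Light 0h and 19.6, 20.8 and 20.7 CPM at Dark 0h, with 1.69 ± 0.418 CPM at Light 4h and 120.9 ± 66.5 at Dark 4h. Its difference between dusk and dawn was not past the threshold without replicate 2 of Light 0h (adjusted p = 0.0545). Solyc03g117860 had 42.4, 39.5 and 41.9 CPM at Light 0h and 12.2, 17.1 and 19.5 CPM at Dark 0h, with 0.334 ± 0.259 CPM at Light 8h and 32.6 ± 16.7 at Dark 8h. Solyc10g076610 had 14.9, 16 and 14.6 CPM at Light 0h and 8.88, 7.61 and 4.92 CPM at Dark 0h, with 0.32 ± 0.138 CPM at Light 8h and 21.5 ± 5.77 at Dark 8h. All 4 were thus near their dawn level late in the night and under it in the hours of light after dawn.

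In GMUCT libraries labelled with the same times, most genes of the lists that passed the threshold went the same way as in mRNA. GMUCT sequences the 5' ends of transcripts that have lost their cap or been cut, in libraries separate from those of mRNA. Since mRNA of Dark 0h correlated with GMUCT of Dark 0h at only -0.13 to 0.06, the shares below compare labels. Whether the labels mark the same hour in both assays was not tested. The same mRNA libraries had r = -0.08, -0.12 and -0.01 with GMUCT of Light 0h. Those of Light 0h had r = -0.58, -0.56 and -0.64 with GMUCT of Dark 0h. How far the shares rest on the Light 0h libraries was not tested, so they are not read as agreement about RNA at dusk. Of the 3224 dusk-high genes tested in both assays, 1391 (43.1%) were also higher in GMUCT and 295 (9.15%) lower, against 24.1% and 24.4% of the 19161 genes tested in both. Of 3892 dawn-high genes, 1959 (50.3%) were also lower in GMUCT and 392 (10.1%) higher. These shared genes made up 30.1% of the 4622 genes higher in GMUCT and 42% of the 4667 lower. The median log2 change in GMUCT was 0.41 for dusk-high genes and -0.5 for dawn-high genes, against 0.01 for all. In GMUCT 47.7% of the dusk-high and 39.6% of the dawn-high genes did not pass the threshold, which does not show that their uncapped RNA was the same.

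The largest opposite changes in GMUCT, within the same limits, were again picked for being opposite. This choice fixes the gap in mRNA and the opposite directions, and it favours a small p for the difference. The p-values here are therefore a description. gene:Solyc01g097280.2 had 46.1, 44.5 and 58.5 CPM in mRNA at Dark 0h and 17.3, 18.7 and 10.2 CPM at Light 0h (log2 change 1.69 ± 0.23, SE). In GMUCT it had 0.243, 0.196 and 0.282 CPM at Dark 0h and 2.69, 2.29 and 3.2 CPM at Light 0h. Its mRNA and uncapped RNA did not overlap between the times, in opposite directions (adjusted p = 1.54e-09 for the difference of the 2 changes, edgeR fit of 36 libraries). Solyc08g080640 had 18.7, 18.3 and 40.8 CPM in mRNA at Dark 0h and 2.52, 1.55 and 0.682 CPM at Light 0h, with 0.487, 0.44 and 0.113 CPM in GMUCT at Dark 0h and 3.95, 1.2 and 8.66 CPM at Light 0h (adjusted p = 7.35e-05 for the difference). Solyc06g069730 was dawn-high, with 30.3, 9.44 and 16.5 CPM in mRNA at Light 0h and 2.12, 6.64 and 1.35 CPM at Dark 0h, and in GMUCT had 1.14, 0.571 and 0.949 CPM at Light 0h and 14.3, 18.6 and 23.6 CPM at Dark 0h (adjusted p = 1.24e-06). Solyc11g021060 had 61.7, 91.5 and 82 CPM in mRNA at Light 0h and 11.1, 1.32 and 4.65 CPM at Dark 0h. Its GMUCT values were 11.2, 13.5 and 138.4 CPM at Dark 0h, where replicate 3 stood apart, and at most 0.12 CPM at Light 0h. Replicate 3 also held nearly all of its uncapped RNA at Dark 4h and Dark 8h, with 24.1 and 66.4 CPM.

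Genes with neighbouring identifiers were in the same list more often than the share of the list alone. The order used was that of the running numbers within each chromosome number, and whether it is the order of the loci was not checked. The next tested identifier after a dusk-high gene was dusk-high in 22.5% of cases, against 16.8% of all genes in this order. It was dawn-high in 16.9%, against 20%. After a dawn-high gene it was dawn-high in 23.6% and dusk-high in 13.7%. Runs of at least 3 such neighbours that were all at least 2-fold higher at Dark 0h numbered 48, and runs at least 2-fold lower 33. How many runs the shares of the lists alone would give was not computed. The longest dusk-high runs had 6 genes and the longest dawn-high runs 4. A 6-gene run from Solyc08g080630 to Solyc08g080680 holds gene:Solyc08g080670.1 and Solyc08g080640 of the text above, with log2 changes of 2.64 to 7.89. Whether neighbours share reads as near-identical copies, or as genes on opposite strands, could not be checked, so values in such runs are uncertain. By chromosome number, from 1 to 12, dusk-high genes made up 12.7% (chromosome 11) to 19% (chromosome 5) of the genes tested, and dawn-high genes 17.5% (chromosome 4) to 23.4% (chromosome 10).

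The files mix 2 forms of identifier, and these differed in direction. Of 3514 genes tested whose identifier carries the prefix gene:, 19.5% were dusk-high and 13.3% dawn-high. Of 16197 without it, 16.2% were dusk-high and 21.5% dawn-high. Among changes of at least 8-fold, 105 of the prefixed genes were dusk-high and 43 dawn-high, and 147 and 138 of the others. What the prefix stands for is not given in the sources used here.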

How the data were processed

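The authors deposited raw counts of reads for 34075 gene identifiers in each library; the 5 counters of reads outside genes that follow them were left out. The submitters' processing notes name cutadapt, HTSeq and STAR (2.4.2a). Settings, build, annotation and strand are not given in those notes. Reads were 150 nt (mRNA) or 50 nt (GMUCT) long, per the labels' protocols.

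Counts were analysed with edgeR 4.0.16 (R 4.3.3). The 18 mRNA libraries were fitted in 6 group means, with genes kept by filterByExpr, TMM factors, quasi-likelihood F-tests and Benjamini-Hochberg adjustment over all genes tested (threshold 0.05). The other times entered the fit to share an estimate of spread. GMUCT was fitted alone in the same way, and the difference between assays in a fit of all 36 libraries. An SE is a change's size over the root of its F. Log2 CPM used a prior count of 2. DESeq2 1.42.0 served as an alternative, beside other scalings, filters, sets of libraries, a replicate block and leaving out each library.

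Genes named had a mean of at least 10 CPM, no overlap between groups and at least 3 counts in every library. They were the 2 largest changes in each direction and, for each of 3 other comparisons, the 2 of each list with the largest opposite change. One gene (1) with a larger change had fewer counts and was passed over. The gene lists by function, which could not be applied, were chosen with earlier results of these data known. The dusk-high and dawn-high lists came from the fit. The test was tried on simulated counts with the spread taken from the fit. Of 100 genes given a log2 change of 1, 50 were called in the right direction. Of 100 given a log2 change of 2, 96 were. Among 19115 genes given no change, 7 were called.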

Additional observations from a re-analysis of the deposited data

Results flagged for a closer look

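The difference between the groups labelled Dark and Light changed with the hour. This was tested as a difference of differences in the fit of 18 mRNA libraries (edgeR, adjusted p under 0.05). Taken with its sign, dark minus light, the difference was higher at hour 0 than at hour 4 in 3817 genes and lower in 4503 of 19711. Against hour 8 it was higher at hour 0 in 4938 genes and lower in 5041. These counts do not compare the size of the difference without its sign. Groups of 3 libraries are too small to look for single libraries that stand apart over all genes, so no such search was made. Single values that stood apart are given above with their genes.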

How the results depend on the processing

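The numbers of higher and lower genes, in all and at 2-fold, stayed within 1.5 times of the values given under every alternative run. Relative log expression factors gave 3517 higher and 3699 lower, DESeq2 3733 and 3933, and no filter 3436 and 3564, while a filter of 5 CPM in 3 libraries gave 3335 and 3290. No gene was called in the opposite direction under any of these. Leaving out each library gave 2626 to 3115 higher and 3058 to 3639 lower genes, and 1590 to 1914 and 1492 to 2044 at 2-fold. Same-numbered replicates of the 2 groups are known here only to share a number. The r of their deviations was 0.05, 0 and -0.1, against -0.23 to 0.24 for pairs of other numbers. With 3 libraries a group this cannot exclude a shared plant or batch. With a replicate block 3203 genes were higher and 3847 lower, and 2815 and 2741 in the fit of 6 libraries.

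Shares of the lists called the same way elsewhere moved more. Among genes of at least 2-fold they were 41.2% (dusk-high) and 37.4% (dawn-high) at hour 4, 28.7% for dawn-high at hour 8 and 44.9% for dawn-high in GMUCT. Among genes of at least 10 CPM they were 38.5 and 24.8% at hour 4, 18.3 and 19.9% at hour 8 and 57.4% for dawn-high in GMUCT. Shares over all genes within the same limits are not given, and the share called differed with read level. The shares of these subsets therefore cannot be set against those of all genes tested. With each library left out, dusk-high shares ran from 32.6 to 39.2% at hour 4, 13 to 18.5% at hour 8 and 41.7 to 44.7% in GMUCT, and dawn-high shares from 26.1 to 30.9%, 20.3 to 25% and 47.3 to 53%. Without the 20 genes of most counts, dusk-high genes held 26.8% of the counts at Dark 0h. The cause of these moves was not tested. With 3 libraries a group, 996 genes with a fitted change of at least 2-fold did not pass the threshold.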
